A study of Mus musculus with 6 samples.

Results

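Naive pluripotency transcription factors are transcriptional regulators that mark mouse ESCs with features of the early epiblast, and 10 of them were followed here from ESCs to NPCs. They were chosen by name, as a list of Ensembl probe set identifiers, from a table of 17144 genes. Of the 10, Nanog (ENSMUSG00000012396_at) was not analysed here, and the values below cover the other 9: Esrrb, Klf4, Klf2, Klf5, Tfcp2l1, Nr0b1, Tbx3, Zfp42 and Sall4. RNA of 6 wild type samples was hybridized to Affymetrix mouse expression arrays, with 3 samples of each cell type that the labels call biological replicates. Nothing says that they were grown separately, so p-values measure the spread between these samples. The ESCs are the V6.5 line, derived from a blastocyst of the 129SvJae/C57B6 F1 background and grown in serum with LIF, and the NPCs were made from these ESCs by differentiation in vitro and propagated on polyornithine and laminin in N3 medium with bFGF and EGF. No group carries a transgene or an agent beyond these media, and both rest on a single ESC line. Values are robust multi-array average (RMA) expression values on the log2 scale, so a difference of 1 is a doubling. Fold changes and percentages of an ESC mean were taken from log2 means, so means on the linear scale are geometric means.

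In mouse ESCs these factors form a mutually reinforcing circuit around OCT4 and SOX2. LIF acts through STAT3 to sustain Klf4 and Tfcp2l1, among others. Esrrb, Tbx3, Klf2 and Klf5 also feed into the same circuit, and Zfp42 (REX1) is a widely used reporter of the naive state. The circuit is dismantled as cells leave pluripotency, and Klf4 and Klf2 are also used outside it, in epithelial, vascular and immune cells among others.

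Each gene was tested with limma over all 17144 genes, and called where the Benjamini-Hochberg adjusted p was under 0.05 and the means differed by more than 1.5-fold. All 9 factors were lower in NPCs. Each of the 9 was called, against 18.7% of all genes called lower in NPCs, and each had all NPC arrays below all ESC arrays, which held for 32.6% of all genes. The median difference of the 9 was -5.54 on the log2 scale, beside -0.036 over all genes. Of the 9, 6 stood among the 100 largest falls. With 3 arrays against 3, an exact permutation test of a single gene cannot go below p = 0.1. Smaller p values therefore rest on the distribution that a test assumes, and in limma also on variance shared across genes. In a test with separate variances and no such sharing, 8 of the 9 were called. In RNA of whole cultures, fewer cells that express a gene and less RNA per cell cannot be told apart.

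**Figure D1:**
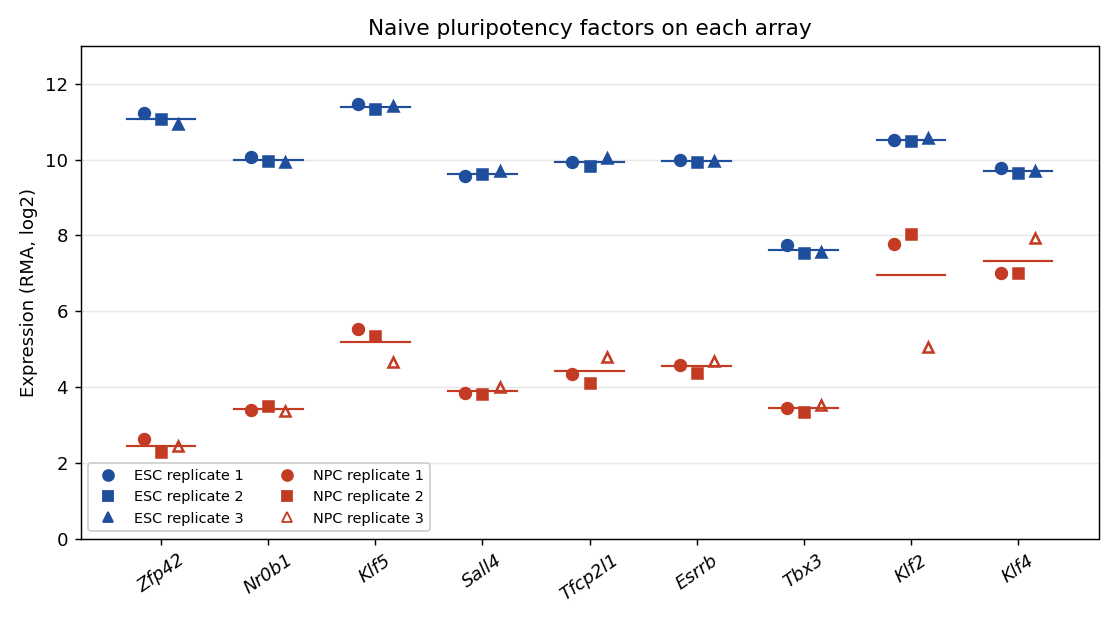
RMA expression on the log2 scale (y axis) of the 9 factors (x axis, ordered by the size of the fall) on each array, with ESC arrays in blue, NPC arrays in red, symbols for replicates and lines for group means. ESC values lie close together for every gene, while the open triangles of NPC replicate 3 stand apart for Klf2 (5.07) and Klf4 (7.94).

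The labels were checked on the marker genes that could be named. Pou5f1, which encodes OCT4, read between 12.42 and 12.46 on the ESC arrays and between 3.61 and 3.83 on the NPC arrays. Of 10 neural precursor markers, 6 could be named (Nes, Fabp7, Olig1, Olig2, Slc1a3 and Vim). The log2 of their summed level was 10.42 to 10.57 on the ESC arrays and 14.61 to 14.86 on the NPC arrays, although they were named from a printed list of mostly genes that rose and are no independent evidence of direction. None of the 8 fibroblast markers and none of the 6 endoderm and trophectoderm markers had a name, and those cell types were not tested for. Arrays of ESCs correlated at r = 0.996 to 0.998 across genes. NPC replicate 3 (the array labelled NP39) stands apart from the other NPC arrays, with r = 0.978 to 0.979 against it and r = 0.997 between NPC replicates 1 and 2, and the Klf2 and Klf4 differences and the order of the falls are given with and without it.

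Upstream sequence of 4 factors is shown because they span the response. Zfp42 fell most, Esrrb fell with the main body of factors, and Klf2 and Klf4 kept most signal by the mean of the NPC arrays. On NPC replicate 3 alone, Klf2 kept 2.28% of its ESC mean on the linear scale, less than Tbx3 at 5.86%. Each is the 250 bases before a RefSeq start site (the first of 2 listed for Esrrb), 5′ to 3′ on the gene's own strand in GRCm38.p6, at chr8:43307010-43307259 (minus strand) for Zfp42, chr12:86360867-86361116 (plus) for Esrrb, chr8:72318812-72319061 (plus) for Klf2 and chr4:55532476-55532725 (minus) for Klf4. Capitals mark matches, on either strand, to the octamer ATGCAAA bound by POU factors or to the KLF box GGGTGTG.
Zfp42: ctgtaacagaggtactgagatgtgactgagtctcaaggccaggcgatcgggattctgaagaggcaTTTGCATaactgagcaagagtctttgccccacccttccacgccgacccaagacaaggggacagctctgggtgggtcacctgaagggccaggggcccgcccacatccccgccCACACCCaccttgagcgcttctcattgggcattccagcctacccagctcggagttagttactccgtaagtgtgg
Esrrb: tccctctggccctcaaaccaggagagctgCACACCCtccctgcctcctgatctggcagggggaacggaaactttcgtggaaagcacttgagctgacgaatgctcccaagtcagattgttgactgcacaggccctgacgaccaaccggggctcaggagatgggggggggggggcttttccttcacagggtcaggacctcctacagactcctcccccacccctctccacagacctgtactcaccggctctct
Klf2: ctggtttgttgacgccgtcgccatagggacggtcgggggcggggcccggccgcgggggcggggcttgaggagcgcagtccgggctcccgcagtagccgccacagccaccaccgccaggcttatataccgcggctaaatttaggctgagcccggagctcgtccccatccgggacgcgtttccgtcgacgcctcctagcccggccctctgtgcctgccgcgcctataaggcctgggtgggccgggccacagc
Klf4: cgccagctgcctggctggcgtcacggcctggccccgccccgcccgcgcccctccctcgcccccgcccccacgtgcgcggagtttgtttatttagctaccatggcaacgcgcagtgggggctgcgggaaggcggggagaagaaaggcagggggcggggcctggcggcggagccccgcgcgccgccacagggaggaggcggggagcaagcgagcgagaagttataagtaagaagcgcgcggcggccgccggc

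In the Zfp42 window the octamer stood in reverse at -185 to -179 and the KLF box in reverse at -74 to -68, counted from the start site. In the Esrrb window shown a reversed KLF box lay at -221 to -215, and the window of the other Esrrb start site, at chr12:86421394-86421643, held none of the motifs searched. The Klf2 and Klf4 windows held neither of these exact strings, and were rich in G and C (71.2% and 74.0% of bases, against 58.4% for Zfp42 and 60.8% for Esrrb). Other GC-rich boxes that KLF factors may bind were not searched for, so a lack of KLF sites there is not shown. Over 9 windows of the 7 listed genes with an entry (Nanog, Esrrb, Klf4, Klf2, Tfcp2l1, Nr0b1 and Zfp42), the octamer was in 3 windows of 2 genes, Zfp42 and Nanog. The SOX core CATTGT was in 2 windows of 1 gene, Nanog, whose windows overlap and share each match. The KLF box was in 2 windows of 2 genes. The Tfcp2l1 and Nr0b1 windows, of genes that fell 46.4-fold and 95.1-fold, held none of the motifs searched. The SOX motif CTTTGTT and the nuclear receptor site AAGGTCA were in 0 of the 9. No matches overlapped. Among all 32851 windows of the same length, 4.12% held the octamer, 10.7% the SOX core, 6.93% the KLF box, 5.03% the SOX motif and 4.08% the nuclear receptor site. A match is a description of letters, not of binding.

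Zfp42 (ENSMUSG00000051176_at), a zinc finger protein related to YY1, fell furthest of the 9. It read 11.23, 11.08 and 10.94 on the ESC arrays and 2.63, 2.28 and 2.44 on the NPC arrays. The groups were separated by 8.31 at their closest arrays. Its mean went from 11.08 ± 0.15 (SD, n = 3 arrays) to 2.45 ± 0.18 (SD, n = 3 arrays), and the difference of -8.63 (standard error 0.12, limma adjusted p = 2.89e-08) was the third largest fall in the table. The NPC mean is 0.252% of the ESC mean on the linear scale.

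Nr0b1 (ENSMUSG00000025056_at, DAX1) encodes an orphan nuclear receptor that binds OCT4 and tempers its activity. The ESC arrays gave 10.06, 9.97 and 9.95, and the NPC arrays 3.40, 3.50 and 3.35. Its spread was small in both cell types, and the difference was -6.57 (standard error 0.08, limma adjusted p = 2.32e-08), or 95.1-fold.

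Sall4 (ENSMUSG00000027547_at), a zinc finger factor that binds with OCT4 and NANOG, read 9.56, 9.62 and 9.70 in ESCs. In NPCs it read 3.85, 3.82 and 4.01. No ESC array came within 5.55 of an NPC array, and the difference was -5.74 (standard error 0.09, limma adjusted p = 3.79e-08), or 53.3-fold.

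Esrrb (ENSMUSG00000021255_at), an orphan nuclear receptor that can stand in for NANOG in ESCs, was at 10.00, 9.95 and 9.95 on the ESC arrays. It was at 4.59, 4.37 and 4.68 on the NPC arrays. Its ESC arrays had the smallest SD of the 9 factors (0.03), and the difference was -5.42 (standard error 0.10, limma adjusted p = 6.96e-08), or 42.8-fold.

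Tfcp2l1 (ENSMUSG00000026380_at) encodes a CP2 family factor that acts downstream of LIF and STAT3. Its ESC values were 9.95, 9.84 and 10.05, and its NPC values 4.35, 4.09 and 4.79. NPC replicate 3 was the highest NPC array, and still 5.05 below the lowest ESC array. The difference was -5.54 (standard error 0.18, limma adjusted p = 6.12e-07), or 46.4-fold.

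Tbx3 (ENSMUSG00000018604_at), a T-box repressor with later roles in limb, heart and extraembryonic tissue, showed the smallest fall outside the KLF genes. It read 7.74, 7.53 and 7.55 on the ESC arrays, and 3.46, 3.35 and 3.52 on the NPC arrays. The arrays of each cell type lay close together and the groups were at least 4.02 apart. The difference was -4.17 (standard error 0.09, limma adjusted p = 1.47e-07), or 18.0-fold.

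Some NPC values lay in the low range of the arrays. The lower quartile of all genes lay between 3.92 and 3.93 on the NPC arrays. Nr0b1, Tbx3 and Zfp42 were under it on all 3 NPC arrays, and Sall4 on 2. Detection calls were not used here, so such values do not set whether a transcript remained.

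**Figure D2:**
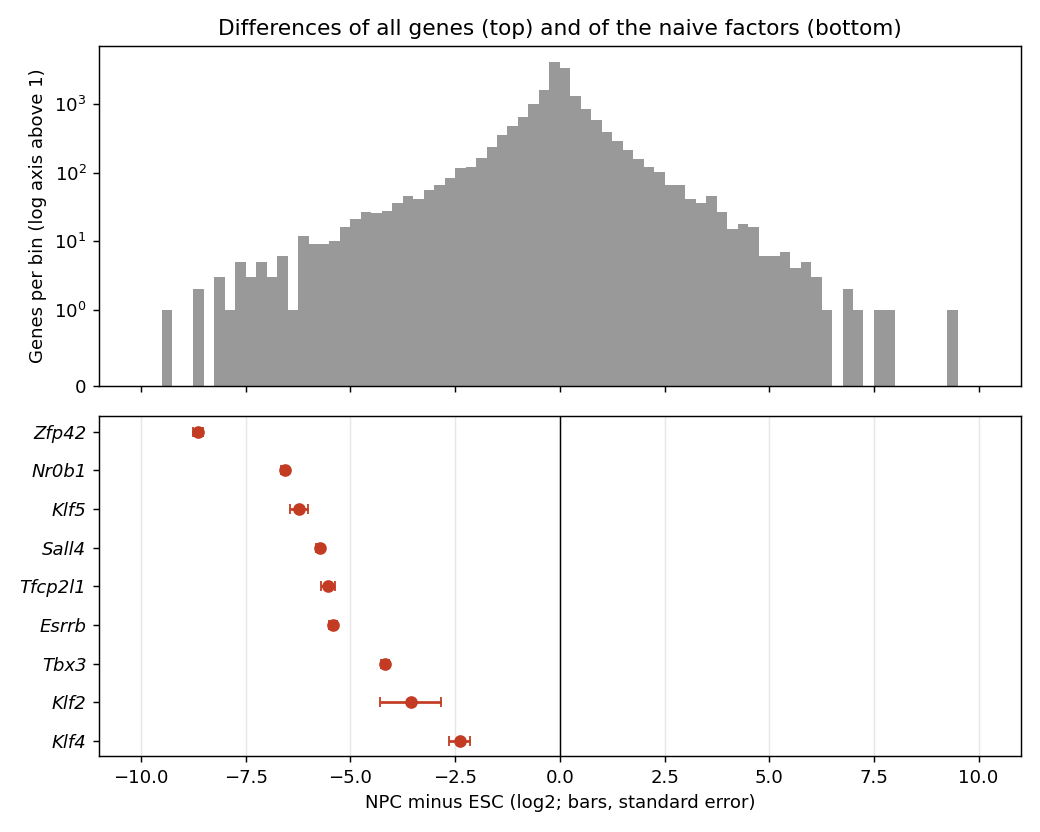
Top, number of genes (y axis, log scale above 1) by difference of NPCs from ESCs (x axis, log2) over all 17144 genes; bottom, the same difference for the 9 factors, with bars for the limma standard error. The factors lie between -8.63 (Zfp42) and -2.39 (Klf4), while the median of all genes is -0.036.

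The 3 KLF factors, zinc finger activators that bind GC-rich boxes and overlap in function in ESCs, did not fall alike. Klf5 (ENSMUSG00000005148_at) read 11.46, 11.33 and 11.41 on the ESC arrays. Its NPC arrays gave 5.54, 5.34 and 4.65, with replicate 3 the lowest. All lay at least 5.79 below every ESC array, and the difference was -6.22 (standard error 0.22, limma adjusted p = 8.93e-07), or 74.5-fold.

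Klf4 (ENSMUSG00000003032_at), one of the original reprogramming factors, read 9.78, 9.65 and 9.70 in ESCs. It read 7.01, 7.01 and 7.94 in NPCs. Here NPC replicate 3 was the highest of the NPC arrays, at 29.3% of the ESC mean on the linear scale, against 15.4% on each of the others. The groups did not overlap, with 1.71 between the closest arrays, the smallest such gap of the 9. The ESC mean was 9.71 ± 0.07 (SD, n = 3 arrays). The NPC mean was 7.32 ± 0.54 (SD, n = 3 arrays), a difference of -2.39 (standard error 0.25, limma adjusted p = 0.000167), or 5.24-fold. Without NPC replicate 3 the difference was -2.70.

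Klf2 (ENSMUSG00000055148_at), a factor tied to MEK inhibition and the ground state in ESCs and to blood flow in endothelium, gave the most uneven NPC values. The ESC arrays were tight at 10.50, 10.48 and 10.58. The NPC arrays gave 7.78, 8.05 and 5.07. NPC replicate 3 thus lay far under the other NPC arrays, which held 14.9% and 18.0% of the ESC mean on the linear scale against 2.28% in replicate 3. All NPC arrays were below all ESC arrays, by at least 2.43. The ESC mean was 10.52 ± 0.05 (SD, n = 3 arrays). The NPC mean was 6.96 ± 1.65 (SD, n = 3 arrays), a difference of -3.56 (standard error 0.72, limma adjusted p = 0.00509). This is 11.8-fold, but without NPC replicate 3 it was 6.10-fold, with a log2 difference of -2.61 (standard error 0.10, limma adjusted p = 1.82e-07). The fit is shown because replicate 3 stood apart, also in Klf2, so the smaller standard error and p-value follow from that choice. Among NPC arrays, only the spread of replicates 1 and 2 then enters. With all arrays, in a test with separate variances for the cell types and no sharing across genes, Klf2 was no longer called (adjusted p = 0.134).

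Ordered by the fall, the factors ran Zfp42, Nr0b1, Klf5, Sall4, Tfcp2l1, Esrrb, Tbx3, Klf2 and Klf4. Probe sets differ in how they respond, so this is an order of array differences and not of transcript numbers. For Zfp42, Nr0b1 and Tbx3, whose NPC values all lay under the lower quartile, the measured difference may fall short of the true one, and their places are a description of signal. Neighbours in the order were set against the combined standard error of their differences. The combination treats the genes as independent, although they were read on the same arrays. It therefore describes the size of a gap and is no test of the order. The gap exceeded 2 combined standard errors between Zfp42 and Nr0b1 (gap 2.06, combined standard error 0.15), between Klf5 and Sall4 (gap 0.48, 0.23) and between Esrrb and Tbx3 (gap 1.25, 0.14). It did not between Nr0b1 and Klf5, Sall4 and Tfcp2l1, Tfcp2l1 and Esrrb, Tbx3 and Klf2, or Klf2 and Klf4. Several of these gaps depended on 1 array. Without NPC replicate 3, the gap between Klf5 and Sall4 was 0.16 (combined standard error 0.12) and no longer exceeded 2 combined standard errors. Those between Nr0b1 and Klf5 (gap 0.58, 0.12) and between Tbx3 and Klf2 (gap 1.60, 0.14) then did. The last pair changed places, with a log2 difference of -2.70 for Klf4 and -2.61 for Klf2, which were not separated by 2 combined standard errors (0.13). Apart from Klf2 and Klf4, the NPC means of the other 7 factors were between 0.252% and 5.56% of the ESC means on the linear scale.

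Within ESCs most factors varied less than the median gene. The SD over the ESC arrays ran from 0.03 (Esrrb) to 0.15 (Zfp42), with a median of 0.07 beside 0.09 over all genes. Zfp42, Tbx3 (0.11) and Tfcp2l1 (0.11) lay above the median of all genes, and the other factors below it. The medians were not matched for expression level. Over the NPC arrays the median SD of the 9 was 0.18, beside 0.14 over all genes, and it ran from 0.08 in Nr0b1 to 1.65 in Klf2. The SD of Klf2 was the 39th highest in the table. Klf4 (0.54), Klf5 (0.47) and Tfcp2l1 (0.35) came next among the factors.

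In Klf2, Klf4, Klf5 and Tfcp2l1 it was NPC replicate 3 that lay apart. Its difference from the mean of NPC replicates 1 and 2 was over 0.5 in size for 4 of the 9 factors, a size passed by 15% of all genes. Klf4 was higher there by 0.93 and Tfcp2l1 by 0.57, while Klf2 differed by -2.85 and Klf5 by -0.79. By this fall Klf2 ranked 12 of 17144 genes. The difference of NPC replicate 1 from replicate 2 was -0.27 in Klf2 and 0.0065 in Klf4. In all, 5 factors were highest in replicate 3 and 3 were lowest there, so the KLF and CP2 factors did not move one way. The other 5 factors (Esrrb, Sall4, Tbx3, Zfp42 and Nr0b1) differed there by between -0.098 and 0.20.

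**Figure D3:**
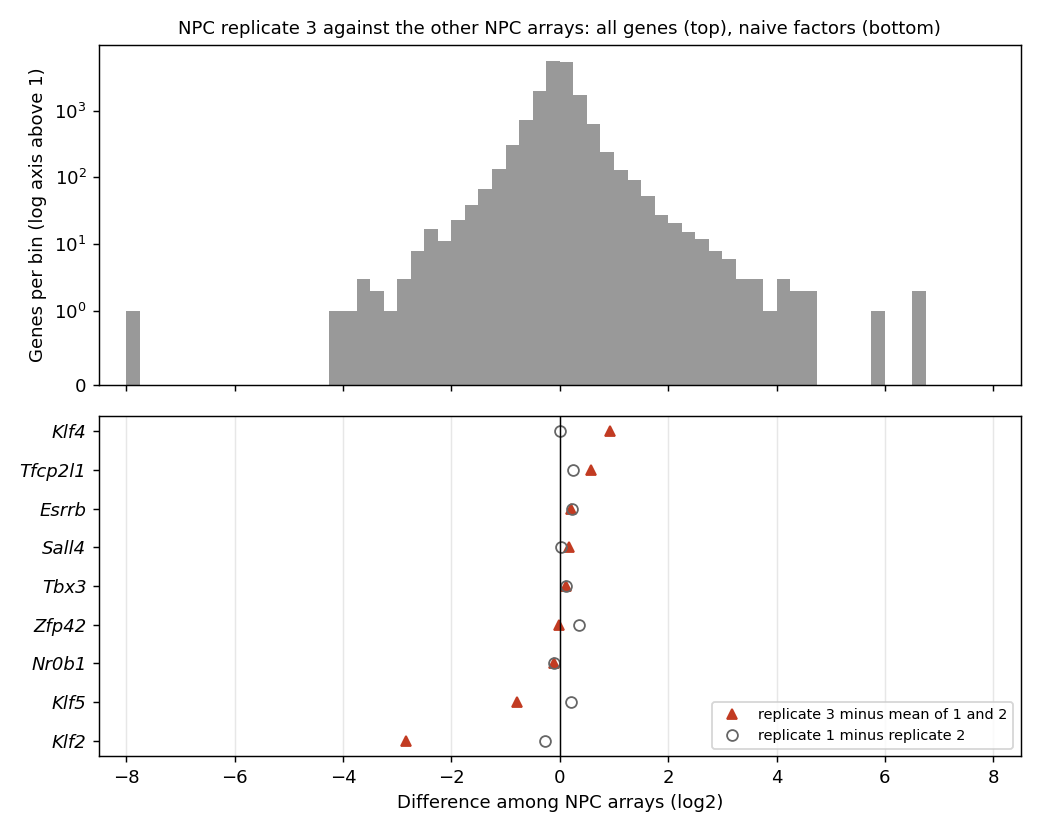
Top, number of genes (y axis, log scale above 1) by difference of NPC replicate 3 from the mean of NPC replicates 1 and 2 (x axis, log2); bottom, that difference for the 9 factors (red triangles) and the difference of NPC replicate 1 from replicate 2 (open circles). Klf2, at -2.85, lies in the lower tail of all genes, and Klf4, at 0.93, lies furthest above the other NPC arrays.

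Other named genes moved in the same array. Of the 6 neural precursor markers, Slc1a3, a glial glutamate transporter, was higher by 1.10 in NPC replicate 3 than in the other NPC arrays, Fabp7 by 0.72 and Olig2 by 0.65. Olig1, Vim and Nes differed by -0.22, -0.18 and -0.069. The log2 of the summed level of the 6 was 14.86 there, against 14.66 and 14.61. S100b, an astrocyte marker, was higher by 0.80, and Dcx, a marker of young neurons, differed by -1.20. Stat3, the effector of LIF, read 9.34 in NPC replicate 3 and 9.93 and 10.03 in the others. The part of these differences in the Klf2 and Klf4 values was not tested.

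Relatives of the factors went the other way where they could be named. Of 27 paralogs listed, 6 had a name, and since names came from a printed list of mostly genes that rose, their direction is largely set by how they were named and their count is no result. Sall3, a relative of Sall4 with roles in brain and limb, ranged from 4.57 to 4.64 on the ESC arrays and reached 8.61 to 8.99 on the NPC arrays, a difference of 4.19 (standard error 0.11, limma adjusted p = 2.66e-07). Sall2 read 4.44 to 4.95 in ESCs and 8.36 to 9.04 in NPCs, a difference of 4.03. On the same arrays Sall4 differed by -5.74.

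Among KLF genes, Klf7, which acts in developing neurons, had a difference of 2.83 (standard error 0.11, limma adjusted p = 1.35e-06) and read between 8.59 and 8.78 in NPCs. Klf12 had a difference of 2.44 and Klf6 of 1.43. Klf15 had a difference of 1.24 (standard error 0.23, limma adjusted p = 0.00348), and like Klf2 it was lowest of the NPC arrays in replicate 3, at 7.12 against 8.03 and 7.96. It was not called with separate, unmoderated variances (adjusted p = 0.106).

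**Figure D4:**
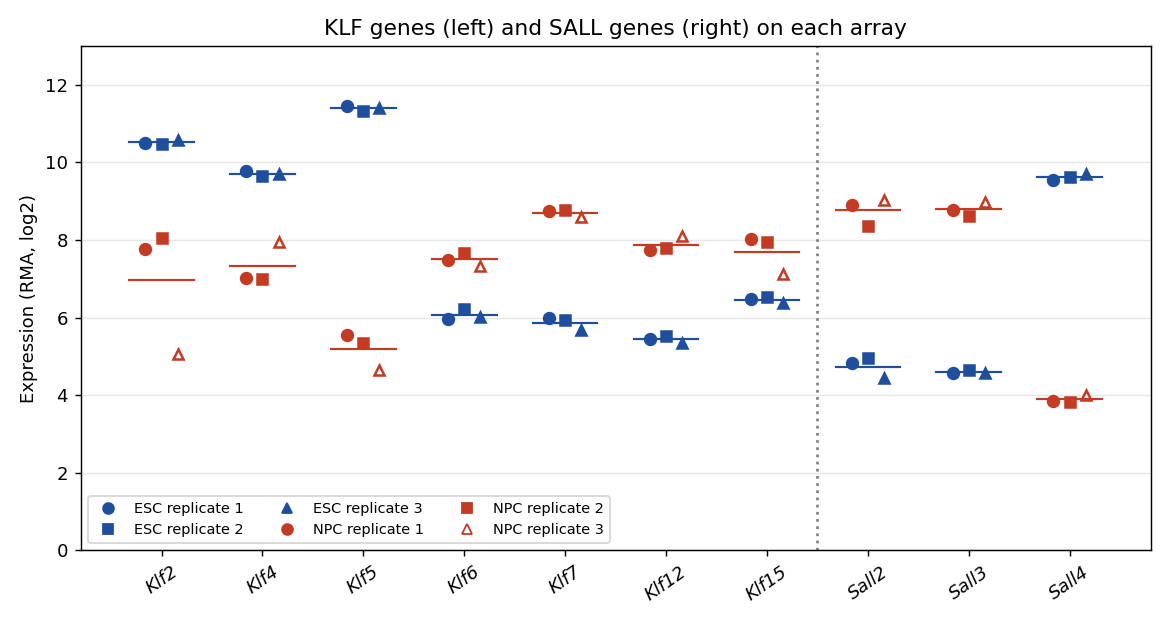
RMA expression on the log2 scale (y axis) of the KLF genes and, right of the dotted line, the SALL genes that could be named (x axis), with ESC arrays in blue, NPC arrays in red, symbols for replicates and lines for group means. Klf2, Klf4, Klf5 and Sall4 are lower in NPCs, and Klf6, Klf7, Klf12, Klf15, Sall2 and Sall3, named from a list of mostly rises, are higher.

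Stat3 was higher in NPCs than in ESCs, where it read between 8.67 and 8.75, and the lowest NPC array was 0.59 above the highest of these. The difference of 1.06 (standard error 0.18, limma adjusted p = 0.00206) stood beside falls of Klf4 and Tfcp2l1. Only RNA was measured, so the activity of the STAT3 protein was not tested. With separate, unmoderated variances Stat3 was not called (adjusted p = 0.0905), and it was named from the same list.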

How the data were processed

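RNA of 3 ESC and 3 NPC samples was hybridized to Affymetrix arrays. The authors deposited log2 values made by RMA, which corrects background, quantile normalizes and summarizes probes per Ensembl gene (BrainCDF annotation, version and build not stated). RMA values can understate large changes at low signal, and precision is limited by having 3 arrays a group. Without 64 control probe sets, 17144 genes were fitted in limma 3.58.1 (R 4.3.3) with no covariates. The study's thresholds were kept, and its moderated test was an alternative, beside other variance models, a replicate block, quantile normalization, median centring, a filter, other thresholds and each array left out.

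The factors, lists and motifs were chosen with earlier results of these data known. Named genes were the factors, listed genes whose 6 values matched a supplementary row within 0.0001 (mostly genes that rose), and the 3 genes with the nearest profile. So named were 6 of 10 NPC markers, 6 of 27 paralogs, 2 of 20 pluripotency companions (Pou5f1 and Stat3), 0 of 8 primed genes, 1 of 6 neuron, 1 of 4 astrocyte and 1 of 5 oligodendrocyte markers. The authors' own comparisons in those rows were not used. A planned comparison of KLF proteins was not run, and 1 further listed marker is not reported here.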

Additional observations from a re-analysis of the deposited data

How the results depend on the processing

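The 9 factors kept their direction under every alternative run. Of 143 values under an alternative, 142 stayed on the same side of the threshold. Part of this count was fixed in advance. The settings that changed only a threshold (over 2-fold, or adjusted p alone) reused the main fit. The smallest fall there was 5.24-fold, so no factor could lose its call. The exception among the 143 was Klf2 when variances were kept separate and were not moderated (adjusted p = 0.134), which left 8 of the 9 called. Stat3 and Klf15 also lost their call in that test (adjusted p = 0.0905 and 0.106). The filter at the median mean value left out Tbx3 and called the other 8. It used the mean over the arrays of both cell types, so a factor could pass through its ESC values alone. Calls after it are no separate support. In the moderated test of the methods all 9 were called, with an adjusted p of 0.0107 for Klf2. With each array left out in turn all 9 were called, and the difference of Klf2 lay between -4.10 (without NPC replicate 2) and -2.61 (without NPC replicate 3).

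Over all genes, 5851 were called, and 3592 with a difference over 2-fold. Median centring moved the median difference of all genes from -0.036 to 0.12 and the percentage of called genes that were higher in NPCs from 45.1% to 55.6%. The fall of Klf4, the smallest of the 9, was then -2.24. In the fit with a replicate block, 5867 genes and all 9 factors were called. Deviations of same-numbered arrays correlated across genes at 0.0264, 0.0110 and -0.00645, so no shift shared by same-numbered arrays was seen. This cannot show whether the samples were paired when they were grown or handled.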

Other observations

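None of the 3 genes outside the list whose profile over the 6 arrays was most like the mean profile of the 9 factors has a name here. They were picked for closeness to a falling profile, so that they were lower in NPCs is fixed by the choice. The measure was the root mean square distance between profiles centred on their own mean. For ENSMUSG00000029304_at it was 0.09, with a difference of NPCs from ESCs of -5.46 on the log2 scale, and for ENSMUSG00000047751_at it was 0.10, with a difference of -5.40. Among the factors themselves, Esrrb was nearest to the mean profile at 0.14, while Zfp42 (1.64), Klf4 (1.53) and Klf2 (1.27) were furthest from it.

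The named markers of neurons, astrocytes and oligodendrocytes were 3, again from genes that rose. S100b, an astrocyte marker, was at 3.98 ± 0.03 (SD, n = 3 arrays) in ESCs and 6.49 ± 0.47 (SD, n = 3 arrays) in NPCs. Cnp, an oligodendrocyte enzyme, was at 6.28 ± 0.08 and 7.16 ± 0.12, and Dcx, a microtubule protein of young neurons, at 3.49 ± 0.18 and 4.56 ± 0.70. The Dcx values in NPCs were 4.86, 5.06 and 3.76, with replicate 3 lowest, as in Klf2.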
